A study of Mus musculus with 18 samples.

Results

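Bone marrow-derived macrophages that carry the Ripk1 T169A change were compared after 2 hours with lipopolysaccharide (LPS) and without stimulation, over all genes. The comparison rests on 3 LPS libraries, numbered 11, 14 and 17 in the deposited table, and 3 unstimulated libraries, numbered 10, 13 and 16, which are 6 of the 18 libraries of the series. The cells came from knock-in mice in which the kinase RIPK1 has alanine in place of a threonine (T169A), so both groups carry the substitution and LPS is the only labelled difference between them. Marrow was cultured for 7 days in RPMI that held 30% L929 supernatant, which contains the growth factor M-CSF, and 20% serum. The series also holds C57BL/6J (B6) cells and an LPS/5z7 treatment. All 18 libraries share the scaling and the estimate of the spread in the test, and B6 values are described only where the LPS effect is set against the other genotype. The labels do not say whether libraries of a group came from separate mice, so p-values measure the spread between these libraries, which may be technical, and they do not give the strain background of the knock-in mice.

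LPS is a cell wall component of Gram-negative bacteria. It is handed by CD14 to the receptor complex of TLR4 and MD-2, which signals through the adaptor MyD88 to TAK1, the IKK kinases and NF-kB, and through the adaptor TRIF to TBK1, IRF3 and interferon beta. RIPK1 is a kinase and scaffold that joins the TRIF branch and the TNF receptor to NF-kB, to caspase-8 and to the necroptosis kinase RIPK3. In macrophages the first hours after LPS bring a wave of directly induced genes, the immediate early genes and NF-kB targets, and a second wave that depends on newly made interferon beta and other proteins.

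The unstimulated libraries held 19126018 to 19897650 counts and the LPS libraries 17990688 to 29508486. Values below are CPM (counts per 1000000 counts of the library) after TMM scaling, in the order 10, 13, 16 for unstimulated and 11, 14, 17 for LPS libraries, and a mean is given ± SD over 3 libraries. All 8 macrophage markers were present, with a summed level of 31630 to 34230 CPM unstimulated and 34600 to 39680 CPM with LPS. Markers of B cells, natural killer cells, mast cells and erythroid cells summed to at most 0.118 CPM in every library. Markers of T cells summed to between 2.49 and 3.95 CPM over the 6 libraries, nearly all from Cd4, while Cd3e, part of the T cell receptor complex, had no count. Ncr1, a receptor of natural killer cells, also had no count in any of the 6 libraries. Fibroblast markers summed to 4.39 to 9.27 CPM before LPS and 4.52 to 10.4 CPM after it, endothelial markers to 1.96 to 4.33 and 3.30 to 4.74 CPM (1 of 3 tested called higher), and dendritic cell markers to 0.163 to 0.235 and 1.36 to 2.17 CPM, mostly Zbtb46, which was called higher. Neutrophil markers summed to between 36.7 and 52.7 CPM unstimulated and between 52.0 and 84.5 CPM with LPS, where 4 of 5 tested were called higher. Pf4 and Acp5, listed as markers of megakaryocytes and osteoclasts, lay at 161 to 185 and 4.24 to 5.67 CPM before LPS and at 229 to 355 and 103 to 128 CPM after it. The part of such cells in the results was not tested, and in bulk RNA fewer cells of a type and less RNA per cell cannot be told apart. LPS library 11 differed more from libraries 14 and 17 (27.6 and 51.8 times the variance of counting) than those did from each other (7.55 times). Library 11 was also deeper, with 29508486 counts against 18233819 and 17990688, and the part of depth in these ratios was not tested. Correlations of log2 CPM were 0.990 and 0.986 with library 11 and 0.992 between libraries 14 and 17. Unstimulated library 10 had the highest level of its group in 63.0% of the 886 genes that rose 4-fold or more, against 38.2% of all genes tested. Without library 11, 3771 genes were called higher and 3984 lower, and without library 10, 3791 and 3935.

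LPS moved most of the transcriptome in T169A macrophages. Of 13068 genes tested with edgeR's quasi-likelihood test at a Benjamini-Hochberg adjusted p under 0.05, 3965 were called higher (30.3%) and 4120 lower (31.5%). At 2-fold or more, 1860 genes (14.2%) were higher and 1997 (15.3%) lower. The directions parted at large changes: 886 genes rose and 609 fell at least 4-fold, and 300 rose and 55 fell at least 16-fold. The 3 LPS libraries did not overlap the 3 unstimulated ones for 69.1% of genes tested, for 1848 of the 1860 genes raised 2-fold and for 1975 of the 1997 lowered 2-fold. Small changes made up a large part of the calls: 2221 called genes moved less than 1.5-fold.

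The raised genes also took over a large part of the RNA counted. Genes raised at least 4-fold held 3.50%, 2.97% and 2.89% of the counts of the unstimulated libraries and 23.2%, 22.5% and 22.2% of the LPS libraries. The 10 genes with the largest gain in CPM (Tnfaip2, Sdc4, Il1b, Acod1, Plek, Cxcl10, Tnf, Cd14, Ccl9 and Kctd12) went from 0.385% to 0.495% of counts to between 5.23% and 5.43%. Genes lowered at least 2-fold shrank from between 6.44% and 6.93% of counts to between 1.46% and 1.49%. These sets were picked by the same changes, so the direction in which their shares moved was fixed in advance. The scaling matters for the results. With TMM the median log2 change over all genes was -0.03, and with library size alone it was -0.61. How far the shares account for this shift was not tested. Directions below are relative to the bulk of genes under TMM. A gene raised by less than about this shift can turn lower when scaled by library size alone, so the sign of 18 of the 46 list medians depends on the scaling. They are the chemoattractant receptor, BCL2, mRNA decay, scavenger receptor, Fc and complement, growth factor receptor, glycolysis, oxidative phosphorylation, citric acid cycle, cholesterol, redox, ribosomal protein, ribosome biogenesis, proteasome, chromatin, TGF-beta, microRNA host and mitochondrial lists.

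**Figure D1:**
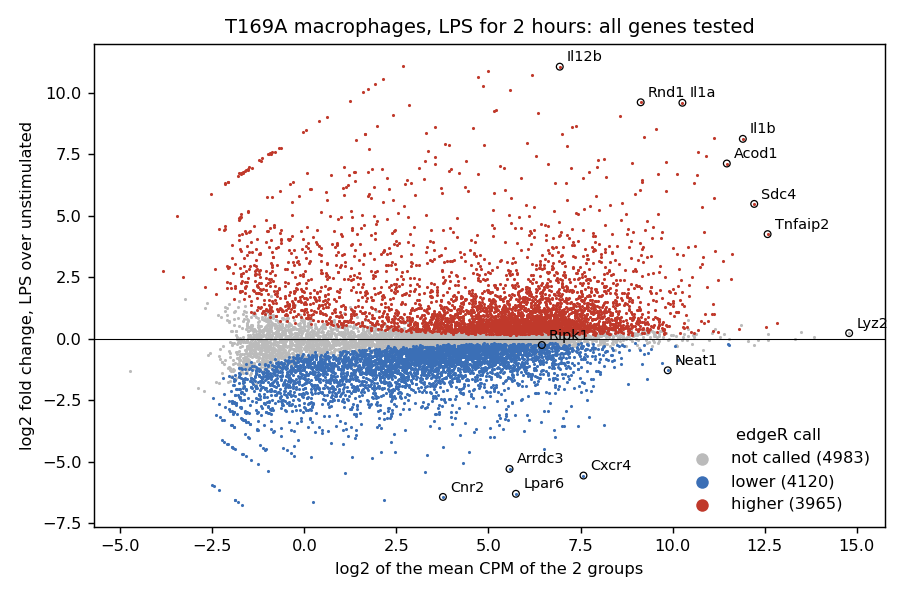
Log2 fold change (LPS over unstimulated T169A libraries) of all 13068 genes tested against the log2 of their mean CPM, coloured by call. The 3965 genes called higher reach far larger changes than the 4120 called lower, and the straight line of points at the upper left holds genes with no or almost no counts in the unstimulated libraries.

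Cytokine and chemokine genes had the largest median changes of the 46 gene lists described. All but 1 of 25 tested inflammatory cytokine genes rose (24, each at least 2-fold), with a median log2 change of 7.78 (6.70 when the 4 genes with no count before LPS are set to their bound) against -0.03 over all genes tested. Members with next to no counts before LPS, such as Csf2, Il19 and Ifnb1, passed the filter on low counts only through groups where they are high. The share raised and the median therefore rest in part on the filter. Il1a, the membrane-bound alarmin interleukin-1 alpha, stood at 5.32, 2.04 and 2.12 CPM unstimulated and 2387, 2551 and 2434 CPM with LPS. The LPS libraries lay within a narrow band far above the unstimulated ones, of which library 10 was the highest (log2 change 9.60 ± 0.32 SE, edgeR adjusted p = 1.4e-13). Il12b, the p40 chain shared by interleukin-12 and interleukin-23, was at 0.247, 0.0393 and 0.0408 CPM unstimulated and 255, 231 and 247 CPM with LPS. It was close to undetected before LPS, with 8 counts over the group. Its fitted change was among the 2 largest of genes with at least 10 CPM (log2 11.07).

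Several cytokine genes had so few counts in unstimulated cells that their fold is only bounded or poorly fixed. Csf2, which encodes the growth factor GM-CSF, had no count in the unstimulated libraries and 6.01, 15 and 17.7 CPM with LPS, so it was at least 292-fold higher (against a floor of 3 counts over the group). LPS library 11 held less Csf2 than libraries 14 and 17. Il6, the acute phase cytokine, had 3 counts before LPS and 73.8, 48.7 and 48.9 CPM after, a ratio of 1480.0 (95% counting interval 506 to 7182), with library 11 the highest. Ifnb1, the gene of interferon beta, had 2 counts before and 58.7, 53.2 and 45.2 CPM after, a ratio of 1981 (95% counting interval 548 to 16370.0). Il19, an interleukin-10 relative, had no count before LPS and 8.74 ± 0.496 CPM after it, at least 217-fold more. These intervals and bounds cover counting error only.

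Il10, the main anti-inflammatory cytokine of macrophages, was at 1.4, 0.51 and 0.816 CPM unstimulated and 147, 159 and 163 CPM with LPS, with no overlap between the groups (log2 7.42 ± 0.26 SE). Other members at high levels with LPS were Tnfsf9, the ligand of 4-1BB, from 3.99 ± 2.16 to 1188 ± 316 CPM, and Il1rn, the interleukin-1 receptor antagonist, from 53.5 ± 7.05 to 1156 ± 187 CPM. Il27 rose from 0.767 ± 0.322 to 307 ± 13.6 CPM and Il15, which sustains natural killer and memory T cells, from 12.7 ± 0.315 to 235 ± 31.5 CPM. Il18, a cytokine that the inflammasome activates, changed the least of the called members, from 12.2 ± 0.83 to 44.3 ± 0.931 CPM (log2 1.86 ± 0.12 SE). Osm, the gene of oncostatin M, did not pass the test, at 10.2, 11 and 11.4 CPM unstimulated and 9.52, 11.2 and 11.8 CPM with LPS. Per exon length (counts divided by exon length, summing to the same total in every library), the cytokine transcripts with the highest level in LPS libraries were Il1b (10895), Tnf (7309) and Il1a (3387), above Il12b (339), Il10 (324) and Il6 (64.4).

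Chemokine genes rose to a like extent. Of 10 tested CC chemokine genes 9 rose, with a median log2 change of 6.99, and of 9 CXC and CX3C genes 8 rose, with a median of 6.91. Ccl17, Ccl20 and Cxcl5 did not pass the filter on low counts and are left out of these shares. Ccl5, which attracts T cells and monocytes, was at 7.3, 2.94 and 1.79 CPM unstimulated and 1509, 1438 and 1564 CPM with LPS (log2 8.55 ± 0.41 SE). Unstimulated library 10 held more Ccl5 than its 2 partners, while the LPS libraries were alike. Ccl4, which attracts monocytes and T cells, rose from 21.9 ± 3.07 to 3779 ± 273 CPM, and Ccl2 and Ccl7, which attract monocytes through CCR2, rose from 6.67 to 939.7 CPM and from 3.49 to 561 CPM. Ccl9, abundant before LPS, rose from 965 ± 101 to 5160.2 ± 96.7 CPM, and Ccl6 did not pass the test, at 144 ± 7.97 and 186 ± 11.6 CPM. In a fit of the 6 libraries alone Ccl6 was called higher (log2 0.38).

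The neutrophil attractants Cxcl1, Cxcl2 and Cxcl3, which share the receptor CXCR2, rose from 0.817 to 328 CPM, from 28 to 1790.1 CPM and from 0.271 to 162 CPM. For Cxcl3 the libraries stood at 0.412, 0.196 and 0.204 CPM unstimulated and 139, 162 and 186 CPM with LPS, with library 11 the lowest of the LPS group. Cxcl9 and Cxcl11, ligands of CXCR3 that interferons induce, also rose. Cxcl9 was at 0.124, 0.353 and 0.286 CPM unstimulated and 45.9, 26.4 and 21 CPM with LPS, and here library 11 was the highest of the LPS group. Cxcl11 rose from 0.108 ± 0.049 to 71 ± 4.22 CPM; the annotation used here marks it as a polymorphic pseudogene. Cxcl12, the ligand of CXCR4, did not pass the test, at 0.529 and 0.519 CPM.

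**Figure D2:**
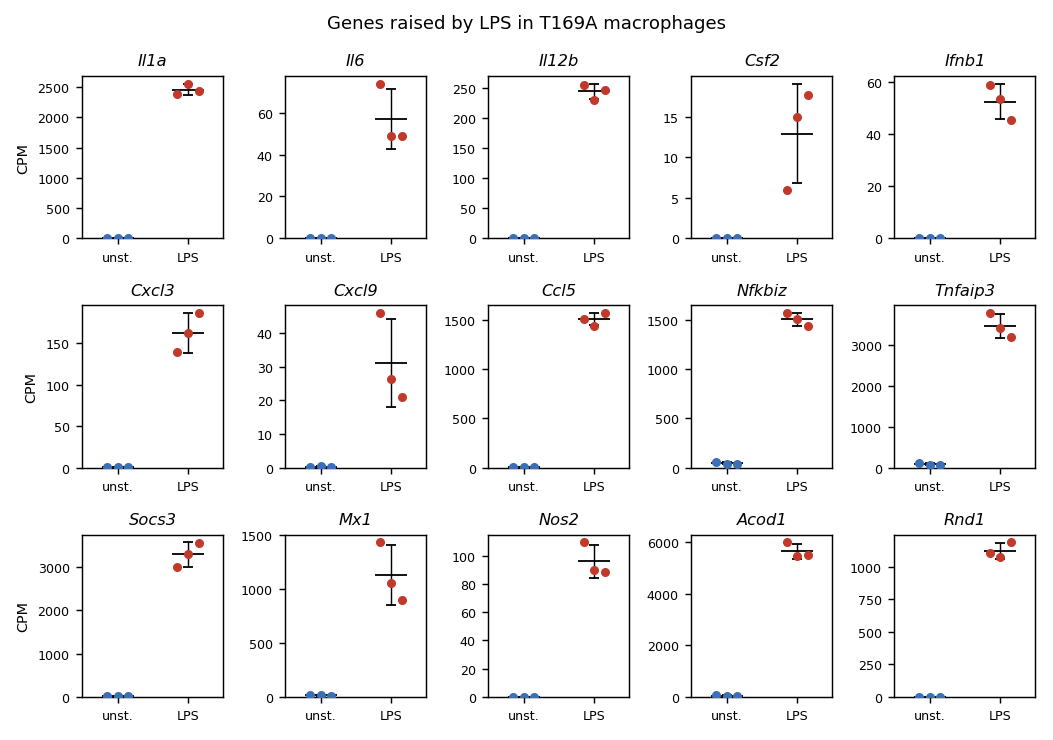
CPM in each of the 6 T169A libraries (points; left to right 10, 13, 16 unstimulated and 11, 14, 17 with LPS) with mean and SD for 15 raised genes, on linear axes that start at 0. No gene overlaps between the groups. Among the LPS libraries, library 11 is the lowest for Il1a, Csf2, Cxcl3 and Socs3. It is the highest for Il6, Il12b, Ifnb1, Cxcl9, Nfkbiz, Tnfaip3, Mx1, Nos2 and Acod1, and neither for Ccl5 and Rnd1.

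The sequence just upstream of these genes can be set beside their change. The 250 bases before the RefSeq transcription start (build GRCm38.p6, older than the build of the counts) were searched on both strands for 4 sets of letters: GGNNTTTCC, a form of the NF-kB site; TTTCNNTTT, the core of the interferon-stimulated response element (ISRE); TGANTCA, the AP-1 site; and TGACGTCA, the cyclic AMP response element (CRE). RefSeq windows were matched by symbol for 607 of the 886 genes raised at least 4-fold and 361 of the 609 lowered. Of their windows, 9.27% of the raised and 4.79% of the lowered held the NF-kB letters, against 5.44% for all genes tested and 4.93% for all windows. The ISRE letters were in 14.6%, 6.1%, 7.36% and 9.37%, in the same order. The AP-1 letters were in 9.53%, 3.27%, 4.6% and 6.75%, and the CRE letters in 1.57%, 2.83%, 2.59% and 1.55%. For genes raised at least 16-fold the shares were 12.2%, 16.7%, 14.6% and 2.03%. These are descriptions of letters in a window, with no test, and a match is not a binding site.

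The windows of 5 strongly raised genes and 1 strongly lowered gene are shown, in lower case 5′ to 3′ with every match in capitals, to place these letters in the genes described. They were picked by hand and are not typical. All 5 raised examples hold the NF-kB letters, against 9.27% of windows of genes raised at least 4-fold.
Cxcl10: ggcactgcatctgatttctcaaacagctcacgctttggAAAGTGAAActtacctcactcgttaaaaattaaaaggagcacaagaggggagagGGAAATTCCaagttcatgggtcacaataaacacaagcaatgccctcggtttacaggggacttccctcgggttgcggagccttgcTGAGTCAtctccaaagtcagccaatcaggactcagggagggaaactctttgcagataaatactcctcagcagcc
Il6: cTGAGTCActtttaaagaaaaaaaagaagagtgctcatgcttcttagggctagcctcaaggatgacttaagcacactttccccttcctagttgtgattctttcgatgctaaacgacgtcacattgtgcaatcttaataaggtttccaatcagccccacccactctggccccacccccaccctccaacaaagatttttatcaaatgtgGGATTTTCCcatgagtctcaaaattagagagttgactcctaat
Cxcl2: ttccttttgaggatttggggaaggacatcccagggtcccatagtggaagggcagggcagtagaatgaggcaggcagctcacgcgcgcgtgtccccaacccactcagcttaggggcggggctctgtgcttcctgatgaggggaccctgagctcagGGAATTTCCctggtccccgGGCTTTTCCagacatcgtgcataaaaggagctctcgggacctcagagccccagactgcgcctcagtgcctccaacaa
Nfkbia: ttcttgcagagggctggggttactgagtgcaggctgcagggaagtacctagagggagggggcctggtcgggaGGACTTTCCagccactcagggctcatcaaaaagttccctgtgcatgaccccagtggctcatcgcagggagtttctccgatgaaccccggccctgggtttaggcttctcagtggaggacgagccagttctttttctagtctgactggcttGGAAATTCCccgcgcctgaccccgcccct
Ifnb1: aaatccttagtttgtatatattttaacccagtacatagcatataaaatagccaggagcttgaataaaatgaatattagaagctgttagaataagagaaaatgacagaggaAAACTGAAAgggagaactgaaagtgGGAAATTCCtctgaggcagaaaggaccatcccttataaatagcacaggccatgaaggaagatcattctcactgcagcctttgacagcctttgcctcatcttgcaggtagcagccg
Cxcr4: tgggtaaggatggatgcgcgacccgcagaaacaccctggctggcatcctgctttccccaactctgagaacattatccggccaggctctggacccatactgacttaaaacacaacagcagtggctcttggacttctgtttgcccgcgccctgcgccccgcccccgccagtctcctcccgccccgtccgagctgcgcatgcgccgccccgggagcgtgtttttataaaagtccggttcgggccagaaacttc

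In GRCm38.p6 these windows are chr5:92348890-92349139 (minus strand) for Cxcl10, chr5:30012864-30013113 (plus strand) for Il6, chr5:90903649-90903898 (plus strand) for Cxcl2, chr12:55492648-55492897 (minus strand) for Nfkbia, chr4:88522795-88523044 (minus strand) for Ifnb1 and chr1:128592300-128592549 (minus strand) for Cxcr4. The Cxcl10 window held 1 match each to the NF-kB, ISRE and AP-1 letters, Ifnb1 held 1 NF-kB and 1 ISRE match, and Il6 held 1 NF-kB and 1 AP-1 match. Cxcl2 and Nfkbia, the latter encoding the inhibitor IkB alpha, each held 2 NF-kB matches. The Cxcr4 window held none of the 4 sets of letters.

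The list of chemoattractant receptors, which also holds receptors of other small molecules such as adenosine and niacin, split by direction. Of 28 tested, 14 rose and 12 fell, and the median log2 change was 0.42. Cxcr4, the receptor that holds cells in the bone marrow through CXCL12, fell from 360.3, 383 and 380.4 CPM to 7.11, 9.26 and 7.5 CPM (log2 -5.56 ± 0.13 SE, edgeR adjusted p = 2.4e-15). The groups lay far apart, and Cxcr4 was among the 10 genes with the largest loss in CPM. The lysophosphatidic acid receptor Lpar6 stood at 91.3, 112 and 114 CPM unstimulated and 1.63, 1.02 and 1.23 CPM with LPS, and the cannabinoid receptor Cnr2 at 24.7, 28.8 and 27 CPM unstimulated and 0.327, 0.319 and 0.259 CPM with LPS. Both were close to undetected after LPS, in all 3 libraries. Cx3cr1, the fractalkine receptor of resident macrophages, fell from 115 ± 6.53 to 34.2 ± 0.836 CPM, and Ccr2, the receptor of CCL2, from 28.2 ± 0.933 to 13.6 ± 3.64 CPM.

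Other receptors of this list moved up. Adora2a, the adenosine receptor that dampens cytokine release, stood at 0.453, 0.0785 and 0.204 CPM unstimulated and 57.8, 56.6 and 61.4 CPM with LPS (log2 7.88, from 18 counts before LPS). Hcar2, the niacin receptor, rose from 1.28 ± 0.146 to 86.6 ± 8.02 CPM, and the formyl peptide receptors Fpr1 and Fpr2 rose from 1.28 to 20.0 CPM and from 3.01 to 67.8 CPM. The complement receptor C3ar1 did not pass the test, at 1188 ± 88 and 1004 ± 107 CPM, and was called lower without library 11 (log2 -0.35). Scaled by library size alone, 10 members of this list were called higher and 13 lower, and the median turned to -0.16.

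The Toll-like receptors themselves moved both ways: 5 of 10 tested rose and 4 fell, against 30.3% higher and 31.5% lower of all genes tested. The counts were 3 and 5 without LPS library 11 and 3 and 6 with library size alone. Tlr4, the LPS receptor, fell from 99.9, 93.7 and 87.9 CPM to 49.2, 30.4 and 27.4 CPM, with library 11 the highest of the LPS group and no overlap (log2 -1.39 ± 0.26 SE, edgeR adjusted p = 1.7e-04). Tlr2, the receptor of bacterial lipoproteins, rose, at 569.6, 359.6 and 372 CPM unstimulated and 2484, 2442 and 2539 CPM with LPS, and unstimulated library 10 was the highest of its group. Tlr9, which reads CpG DNA, fell from 33.3 ± 3.62 to 12.9 ± 4.0 CPM, while Tlr1 and Tlr3 rose from 48.5 to 113 CPM and from 12.3 to 27.2 CPM. Tlr8 did not pass the test, at 172 ± 13.6 and 114 ± 43.3 CPM, and was called lower without library 11 (log2 -0.96) and in the fit of the 6 libraries alone (-0.57).

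Downstream of the receptor, 12 of 18 tested co-receptors, adaptors and proximal kinases rose and 3 fell (7 and 4 with library size alone). The shares over all genes tested were 30.3% higher and 31.5% lower. Cd14 rose from 524 ± 67.9 to 4740.4 ± 721 CPM and Myd88 from 84 ± 3.67 to 354 ± 3.97 CPM. Peli1, an E3 ligase of the TRIF branch, rose from 41.5 ± 2.53 to 527 ± 116 CPM and Irak3, the inactive relative of the IRAK kinases that restrains the pathway, from 32.4 ± 1.36 to 91.5 ± 5.3 CPM. Irak4, the first kinase recruited by MyD88, fell from 42.3 ± 0.286 to 27.6 ± 1.95 CPM, and Irak1 did not pass the test at 107 and 94.7 CPM but was called lower with a filter at 1 CPM (log2 -0.18).

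Among 13 TAK1, IKK and TBK1 kinases and partners, 9 rose and 2 fell (7 and 4 with library size alone). For this list and the MAP kinases below, the shares over all genes tested were 30.3% higher and 31.5% lower. Map3k8, the kinase TPL2 that activates ERK, rose from 27.4 ± 1.49 to 239 ± 10.9 CPM, Tbk1 from 97.5 ± 2.49 to 196 ± 15.8 CPM and Ikbke, its close relative, from 203 ± 4.17 to 660.3 ± 34.2 CPM. Of genes of TAK1 binding partners, Tab2 rose from 192 ± 8.5 to 679 ± 76.6 CPM, and Tab1 was at 28.3, 28.2 and 27.9 CPM unstimulated and 4.58, 3.06 and 5.43 CPM with LPS, a fall of every LPS library below every unstimulated one (log2 -2.68 ± 0.14 SE). Map3k7, which encodes TAK1, did not pass the test, at 63.9, 61.4 and 57.3 CPM unstimulated and 78.6, 71.2 and 66.7 CPM with LPS, although its groups did not overlap. In a fit of the 6 libraries alone it was called higher (log2 0.26). Of 14 MAP kinases and MAP kinase kinases 8 rose and 1 fell (6 and 4 with library size alone). The largest change was in Mapkapk2, the p38 target kinase that stabilises cytokine mRNAs, from 287 ± 36.2 to 2038 ± 73.4 CPM, while Mapk3, which encodes an ERK kinase, did not pass the test at 229 and 241 CPM.

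The NF-kB family rose as a whole: all 11 subunit and inhibitor genes were called higher, each at least 2-fold, with a median log2 change of 2.93. Nfkbiz, the nuclear inhibitor relative IkB zeta that is needed for secondary genes such as Il6, stood at 58.2, 39.2 and 36.1 CPM unstimulated and 1565, 1508 and 1435 CPM with LPS, with no overlap (log2 5.08 ± 0.18 SE). Nfkbia, the inhibitor that NF-kB itself induces, rose from 210.4 ± 58 to 2919 ± 300.5 CPM, Nfkb2 from 119 ± 17.3 to 1051 ± 49 CPM and Rel from 92.7 ± 13.5 to 579 ± 129 CPM. Rela, the p65 subunit, had the smallest change, from 113 ± 10.7 to 335 ± 16 CPM (log2 1.57 ± 0.08 SE).

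Of 18 tested genes in a list of ubiquitin editing genes and related regulators, 13 rose and 1 fell. The shares over all genes tested were 30.3% higher and 31.5% lower. The list also holds Zc3h12a, described below as an endonuclease, and Tnfaip8 and Tnfaip8l2, so not every member is a ubiquitin editing gene. Tnfaip3 encodes A20, which removes ubiquitin chains from RIPK1 and other signalling proteins, and stood at 117, 70.6 and 63.9 CPM unstimulated and 3788, 3409 and 3207 CPM with LPS (log2 5.37 ± 0.28 SE). Its partners Tnip1 and Tnip3 rose from 115 to 1142 CPM and from 77.5 to 1323 CPM. Birc3 and Birc2, the cIAP ligases that ubiquitinate RIPK1, rose from 93.8 ± 15.9 to 385 ± 33.5 CPM and from 27.7 ± 1.51 to 86.2 ± 8.85 CPM. Rnf31, the catalytic subunit of the linear chain complex LUBAC, rose from 35.6 ± 1.79 to 142 ± 2.7 CPM, while its partners Rbck1 and Sharpin did not pass the test, at 60.3 and 56.2 CPM and at 41 and 41.4 CPM. The 1 member that fell was Tnfaip8l2, an inhibitor of Toll-like receptor signalling known as TIPE2, from 101 ± 8.0 to 17.9 ± 2.08 CPM.

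RIPK1 and the genes of cell death were next described, since the knock-in changes RIPK1. Counts per gene cannot show the substitution itself. Ripk1 stood at 98.3, 96.1 and 90.7 CPM unstimulated and 94.8, 76.7 and 67.6 CPM with LPS and did not pass the test (log2 -0.25 ± 0.12 SE, edgeR adjusted p = 0.0865). Library 11 lay within the unstimulated range and libraries 14 and 17 below it, and without library 11 Ripk1 was called lower (log2 -0.41). Of 14 genes of RIPK1 signalling and necroptosis 9 rose and 1 fell, with a median log2 change of 1.23. The shares over all genes tested were 30.3% higher and 31.5% lower. Cflar, whose product cFLIP blocks caspase-8, was at 167, 145 and 129.9 CPM unstimulated and 2316, 1837 and 1589 CPM with LPS, with library 11 the highest (log2 3.70 ± 0.24 SE). Mlkl, which encodes the pore-forming executor of necroptosis, rose, at 10.8, 8.87 and 8.61 CPM unstimulated and 46.4, 33.8 and 31.6 CPM with LPS (log2 1.99 ± 0.17 SE).

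The nucleic acid sensor Zbp1, which can activate RIPK3, was at 12.9, 11.6 and 9.83 CPM unstimulated and 90.5, 79.6 and 72.4 CPM with LPS (log2 2.82 ± 0.23 SE). Ripk2, the kinase of the NOD receptors, rose from 11.6 ± 1.89 to 202 ± 8.72 CPM and the death receptor Fas from 7.12 ± 1.41 to 44.8 ± 0.597 CPM. The TNF receptor genes Tnfrsf1b and Tnfrsf1a rose from 768 ± 81.7 to 4028 ± 62.2 CPM and from 135 ± 4.18 to 240.0 ± 3.59 CPM. Fadd, the adaptor that joins death receptors to caspase-8, fell from 15.5 ± 0.383 to 9.87 ± 0.579 CPM. Ripk3 and Casp8 did not pass the test: Ripk3 was at 9.36, 10.1 and 10.2 CPM unstimulated and 9.68, 12.1 and 13.5 CPM with LPS, and Casp8 at 88.5, 86.7 and 86 CPM unstimulated and 108, 92.8 and 95.2 CPM with LPS. Without library 11 Ripk3 was called higher (log2 0.36), and DESeq2 called Casp8 higher (log2 0.20). Scaled by library size alone, 8 members were called higher and 5 lower.

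Of 16 inflammasome and pyroptosis genes 9 rose and 3 fell (8 and 6 with library size alone). Nlrp3, the sensor that LPS primes, rose from 82.3 ± 24.5 to 1084 ± 48.1 CPM, Casp4, the mouse caspase-11 that binds LPS in the cytosol, from 38.1 ± 6.63 to 277 ± 28.9 CPM, and Gsdmd, the pore protein of pyroptosis, from 80.9 ± 1.45 to 174 ± 5.5 CPM. Gsdme, the gasdermin cut by caspase-3, fell from 6.48 ± 0.562 to 2.28 ± 0.577 CPM. In the BCL2 family 10 of 21 rose and 4 fell (7 and 10 with library size alone), against 30.3% higher and 31.5% lower of all genes tested. The survival genes Bcl2a1b and Bcl2a1d rose from 35.6 ± 2.94 to 422 ± 74.4 CPM and from 2.76 ± 0.556 to 223 ± 21.9 CPM, and Bcl2a1a from 0.272 ± 0.134 to 41.4 ± 1.48 CPM; the 3 are near-identical copies, so how reads were divided among them is uncertain. Bmf, a BH3-only gene that promotes apoptosis, stood at 41.1, 43.5 and 43.3 CPM unstimulated and 1.96, 1.85 and 1.29 CPM with LPS (log2 -4.62 ± 0.18 SE). It had one of the 12 largest falls of genes with at least 10 CPM. The BH3-only gene Bcl2l11, known as BIM, moved the other way, from 256 ± 9.42 to 1099.6 ± 48 CPM.

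Interferon genes had risen throughout at 2 hours. All 34 tested antiviral genes were called higher, 33 of them at least 2-fold, with a median log2 change of 3.11, and 15 of 16 guanylate binding proteins and immunity-related GTPases rose, with a median of 4.16. Mx1, an antiviral GTPase, stood at 17.2, 12.8 and 10.5 CPM unstimulated and 1436, 1059 and 901 CPM with LPS (log2 6.39 ± 0.25 SE). Gbp5, which assembles on bacteria and promotes inflammasome activity, was at 17.4, 9.5 and 9.14 CPM unstimulated and 2165, 1674 and 1499 CPM with LPS (log2 7.21 ± 0.27 SE). Library 11 was the highest LPS library for both. Other large changes were in Mx2, from 3.84 ± 0.457 to 491 ± 50.8 CPM, Oasl1, from 2.42 ± 0.755 to 297 ± 66.2 CPM, and Rsad2, which encodes viperin, from 37.6 ± 10.7 to 3019 ± 1067 CPM. Gbp8 did not pass the test, at 1.49 and 0.965 CPM, and was called lower without library 11 (log2 -1.29). Genes of the Gbp, Oas, Slfn and Ifi200 families are similar in sequence, so the division of reads among copies is uncertain.

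Of 13 interferon regulatory factors, interferons and receptors 12 rose and none fell (7 and 2 with library size alone). Over all genes tested the shares were 30.3% higher and 31.5% lower. Irf1 rose from 78.2 ± 10.5 to 1589 ± 134 CPM, Irf7, which amplifies the interferon response, from 42.4 ± 4.81 to 358 ± 10.2 CPM, and Irf9, the DNA-binding part of the interferon-activated complex ISGF3, from 60.9 ± 0.804 to 141 ± 3.77 CPM. Irf2 did not pass the test, at 60.3 and 65.7 CPM. Some raised genes lay side by side in the genome, by the RefSeq order of 11249 tested protein-coding genes. Runs of 3 or more neighbours raised at least 4-fold numbered 24 and held 95 genes, where 886 of 13068 genes tested rose that far. How many runs such a share gives by position alone was not worked out. Several runs were families of similar genes, and genes not tested were skipped. The longest run, of 15 genes on chromosome 1, held the interferon-inducible Ifi200 family together with 3 olfactory receptor genes, and a run of 7 on chromosome 11 held the Schlafen genes Slfn1, Slfn2, Slfn3, Slfn4, Slfn5, Slfn8 and Slfn9. Read-through from one neighbour into the next was not tested.

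Transcription factors of the immediate early class had mixed directions at 2 hours. Of 14 AP-1 and small MAF genes 10 rose and 2 fell, and the 2 that fell were Fos and Jun. Fos was at 234, 230.3 and 239.5 CPM unstimulated and 20.7, 21.7 and 17.1 CPM with LPS (log2 -3.56 ± 0.15 SE), and Jun fell from 113 ± 15.8 to 22.4 ± 1.87 CPM. Junb rose from 210.4 ± 50.5 to 1366 ± 245 CPM, Maff from 8.15 ± 2.95 to 143 ± 13.1 CPM, and Batf2, an interferon-linked partner of JUN proteins, from 3.24 ± 0.228 to 29.2 ± 3.58 CPM. Among 22 further immediate early genes 13 rose and 5 fell (8 and 9 with library size alone). Beside both lists, 30.3% of all genes tested were higher and 31.5% lower. Gadd45b, a stress gene that NF-kB induces, rose from 26.3 ± 5.14 to 755 ± 91.3 CPM, and Nr4a3, an orphan nuclear receptor, from 0.487 ± 0.273 to 10.5 ± 2.1 CPM. Rgs2, an inhibitor of G protein signalling, fell from 174 ± 24.1 to 7.65 ± 1.7 CPM (log2 -4.50 ± 0.24 SE), and Egr1, Nr4a1 and Klf10 fell from 18.3 to 12.5 CPM, from 27 to 9.17 CPM and from 48.8 to 28.3 CPM.

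Brakes on signalling moved both ways. Of 12 dual specificity MAP kinase phosphatase genes 6 rose and 3 fell (6 and 6 with library size alone), against 30.3% higher and 31.5% lower of all genes tested. Dusp1, which switches off p38 and JNK, rose from 105 ± 7.98 to 958 ± 118 CPM and Dusp2 from 6.08 ± 2.96 to 582 ± 91.2 CPM, while Dusp6, which acts on ERK, stood at 23.7, 24.5 and 21.3 CPM unstimulated and 1.92, 1.92 and 1.68 CPM with LPS, each LPS library far below the unstimulated ones (log2 -3.64 ± 0.16 SE). Of 11 genes that control cytokine mRNA decay 7 rose and 3 fell (4 and 4 with library size alone), against the same shares of all genes. Zfp36, the AU-rich element binding protein tristetraprolin, rose from 266 ± 3.0 to 1502 ± 83 CPM and Zc3h12a, the endonuclease Regnase-1, from 39.3 ± 8.19 to 378 ± 17.3 CPM. Zfp36l2, a relative of Zfp36, fell from 243 ± 29.7 to 20.9 ± 0.918 CPM (log2 -3.54 ± 0.14 SE).

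In the JAK-STAT pathway 14 of 20 tested genes rose and 1 fell (10 and 4 with library size alone). Over all genes tested the shares were 30.3% higher and 31.5% lower. Socs3, the inhibitor of interleukin-6 family and G-CSF signalling, stood at 28, 12.7 and 10.8 CPM unstimulated and 2999, 3313 and 3559.9 CPM with LPS (log2 7.58 ± 0.37 SE), with library 10 the highest before LPS. Cish and Socs1 rose from 1.22 ± 0.684 to 281 ± 26.3 CPM and from 0.689 ± 0.137 to 85.6 ± 9.09 CPM. Jak2, the kinase of the GM-CSF receptor, rose from 46.2 ± 3.31 to 932 ± 111 CPM and Stat5a from 24.6 ± 0.702 to 448 ± 10.8 CPM. Stat6, which transmits interleukin-4, did not pass the test, at 288 ± 6.4 and 299.6 ± 4.78 CPM.

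Effector genes rose with few exceptions, 24 of 26 tested, with a median log2 change of 3.74. Arg1, Ido1, Ereg and Areg did not pass the filter on low counts and are left out of this share. Nos2, the inducible nitric oxide synthase, was at 0.0412, 0.118 and 0.0816 CPM unstimulated and 109.5, 90.0 and 88.8 CPM with LPS (log2 10.12, from 6 counts before LPS). Acod1, which makes itaconate, stood at 69.2, 25.8 and 25.5 CPM unstimulated and 5989, 5439 and 5479 CPM with LPS (log2 7.13 ± 0.40 SE), with library 10 well above its partners before LPS. The prostaglandin genes Ptgs2 and Ptges rose from 1.42 ± 0.835 to 764 ± 125 CPM and from 4.12 ± 0.837 to 132 ± 5.9 CPM, the collagenase gene Mmp13 from 20.7 ± 3.32 to 2183 ± 258 CPM, and Edn1, the precursor of endothelin, from 0.124 ± 0.18 to 47.9 ± 3.7 CPM. Vegfa was the member that fell, from 56.8 ± 4.32 to 27.3 ± 4.78 CPM, and Thbs1 did not pass the test, at 185 ± 40.1 and 275 ± 73.7 CPM, and was called higher in the fit of the 6 libraries alone (log2 0.59). Genes with no place in the lists were among the 12 largest increases of genes with at least 10 CPM. Rnd1, an atypical small GTPase that loosens actin fibres, stood at 1.98, 1.37 and 0.897 CPM unstimulated and 1103, 1072 and 1188 CPM with LPS (log2 9.62 ± 0.22 SE). Adamts4, a protease of cartilage aggrecan, was at 0.124, 0.0393 and 0.0816 CPM unstimulated and 153, 140.3 and 146 CPM with LPS (log2 10.72, from 6 counts before LPS). Plat, the tissue plasminogen activator, rose from 0.106 ± 0.112 to 73 ± 9.96 CPM. Shisa3 had 2 counts before LPS and 59.7, 56.4 and 73.6 CPM after, a ratio of 2324 (95% counting interval 643 to 19200.0). Adm, the peptide hormone adrenomedullin, had 1 count before and 9.72, 16.3 and 16.7 CPM after, a ratio of 1003 (95% counting interval 179 to 39660.0).

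Surface molecules, mostly for T cell contact and adhesion, rose in 19 of 21 cases and fell in none (15 and 3 with library size alone). The transporter gene Slc7a2 is also in this list and was called higher. Cd40 rose from 12.8 ± 2.53 to 1141 ± 57.9 CPM, Icam1 from 173 ± 28.5 to 3528 ± 259.9 CPM, Vcam1 from 1.39 ± 0.491 to 195 ± 6.35 CPM and Cd274, the checkpoint ligand PD-L1, from 33.3 ± 4.76 to 482 ± 177 CPM. Antigen presentation genes rose in 16 of 18 cases (10 and 1 with library size alone), with smaller sizes (median log2 1.21). Tap1, the peptide transporter of class I presentation, rose from 53.9 ± 0.625 to 298 ± 9.41 CPM and H2-K1, a class I heavy chain, from 718 ± 41.2 to 1535 ± 104 CPM, and the class II invariant chain Cd74 from 18.1 ± 3.58 to 48.1 ± 4.73 CPM. H2-DMa did not pass the test, at 20.1 and 20.9 CPM.

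Of 22 genes listed as receptors for particles and dying cells 10 were higher and 4 lower (7 and 11 with library size alone). The shares over all genes tested were 30.3% higher and 31.5% lower. Gas6, counted as lower, and Cd5l, not called, are in this list but encode secreted proteins. The median log2 change of the list was 0.21, which library size scaling turned to -0.37. Olr1, the receptor of oxidised LDL, rose from 3.79 ± 2.4 to 418 ± 29.3 CPM and Clec4e, the Mincle receptor of mycobacterial glycolipids, from 90.3 ± 32.9 to 1563 ± 119 CPM. Mertk, the receptor for dying cells, fell from 242 ± 7.39 to 105 ± 9.58 CPM and Stab1, a scavenger receptor, from 1462 ± 98.6 to 810.3 ± 36.3 CPM. Trem2 and Cd36 did not pass the test, at 764 and 617 CPM and at 669.9 and 765 CPM; Trem2 was called lower without library 17 (log2 -0.43) and with no filter on low counts (-0.33). Of 12 Fc receptor and complement genes 6 rose and none fell (3 and 2 with library size alone). C3, the central complement protein, rose from 131 ± 28 to 689.6 ± 129 CPM, and Fcgr2b, the inhibitory Fc receptor, from 109 ± 15.3 to 469 ± 80.3 CPM, while C1qb did not pass the test, at 1968 ± 114 and 2589 ± 381 CPM, and was called higher in the fit of the 6 libraries alone (log2 0.40).

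The regulators of the macrophage lineage moved both ways: 10 of 20 fell and 8 rose, against 30.3% higher and 31.5% lower of all genes tested. Cebpa, a factor that drives the myeloid lineage, stood at 371, 402 and 363 CPM unstimulated and 35.9, 39.8 and 50.4 CPM with LPS (log2 -3.17 ± 0.14 SE). Each LPS library lay far below the unstimulated ones. Cebpd and Cebpb, relatives of Cebpa that LPS is known to induce, rose from 7.88 ± 2.03 to 71.9 ± 10.8 CPM and from 36.5 ± 13.6 to 121 ± 16.2 CPM, and Spi1, the master regulator PU.1, from 328 ± 30.7 to 742 ± 97.5 CPM. Maf and Id3 fell from 425 ± 19.3 to 226 ± 13.4 CPM and from 266 ± 12.2 to 139 ± 41.6 CPM. Of 22 growth factor, cytokine and lineage receptors 12 rose and 4 fell (8 and 10 with library size alone), against the same shares of all genes. Il15ra and Il4ra rose from 3.58 ± 0.198 to 94.8 ± 13.2 CPM and from 184 ± 1.13 to 849 ± 97.2 CPM, while Il21r and Il6ra fell from 57.1 ± 2.7 to 14.1 ± 0.291 CPM and from 139.5 ± 6.47 to 70.6 ± 4.04 CPM.

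**Figure D3:**
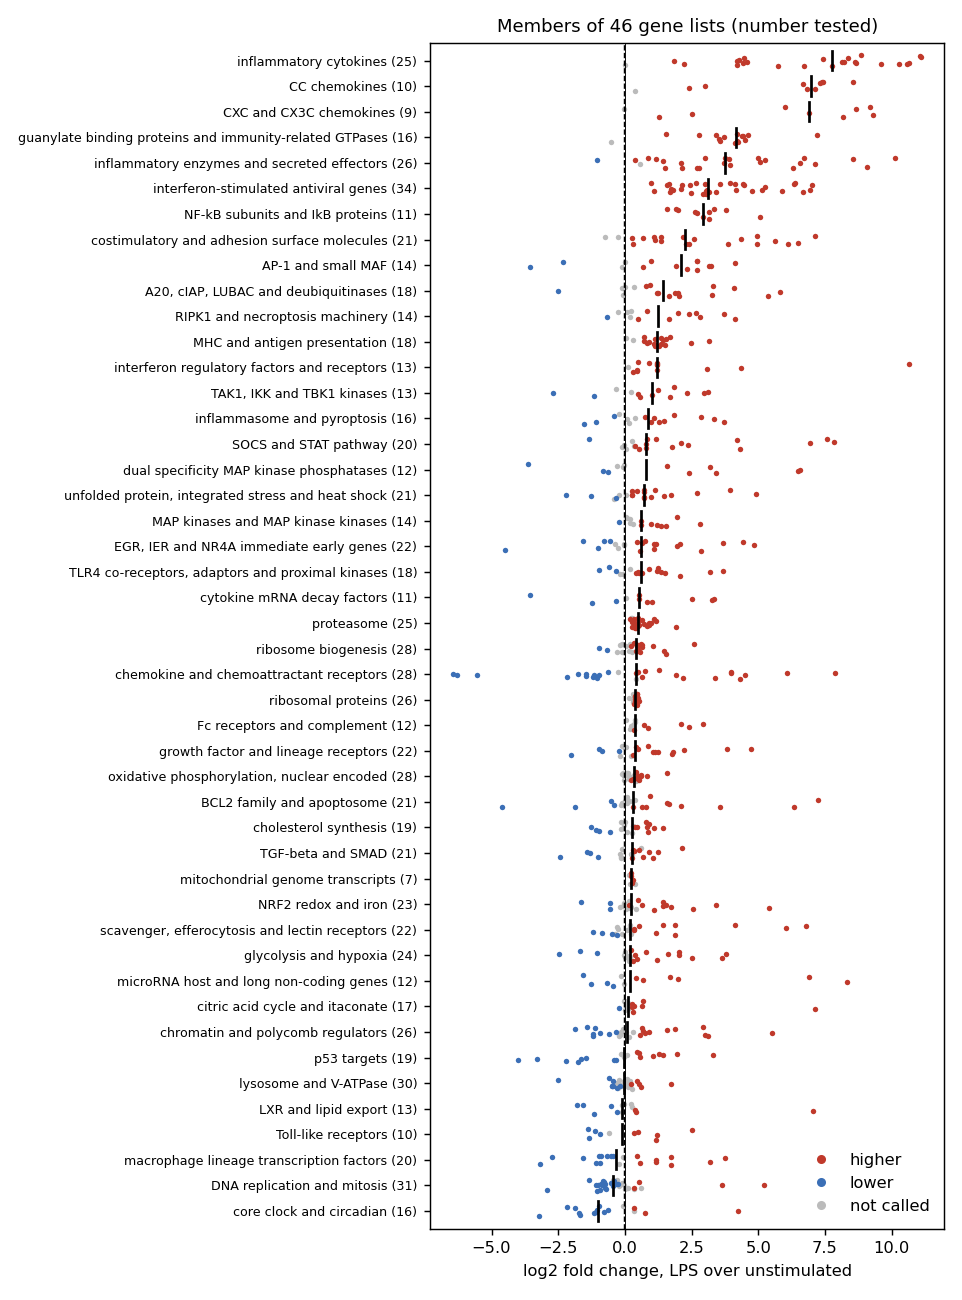
Log2 fold change of each tested member (points) of the 46 gene lists, with the median of each list as a vertical bar and the median over all genes tested as a dashed line. Cytokines, chemokines and interferon genes lie at the top with medians from 3.11 to 7.78, and clock, cell cycle and macrophage lineage genes at the bottom have medians below that of all genes.

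Metabolic lists had small median changes. Of 24 glycolysis and hypoxia genes 12 rose and 3 fell (8 and 14 with library size alone), against 30.3% higher and 31.5% lower of all genes tested. Their median log2 change was 0.20. Pfkfb3, which makes the activator of phosphofructokinase, rose from 41.8 ± 2.29 to 575 ± 97.8 CPM, Hk2 from 68.9 ± 2.39 to 393 ± 58.8 CPM, Slc2a1, the glucose transporter GLUT1, from 30.5 ± 2.76 to 125 ± 6.27 CPM and Hif1a from 96 ± 13.2 to 388 ± 42.5 CPM, while Ldha and Aldoa did not pass the test, at 337 and 383 CPM and at 749 and 821 CPM. Txnip, an inhibitor of thioredoxin and of glucose uptake, fell, at 307, 364 and 359.6 CPM unstimulated and 68.7, 57.4 and 59.6 CPM with LPS (log2 -2.47 ± 0.10 SE). Nuclear-encoded oxidative phosphorylation genes (12 of 28 higher, none lower, median 0.33), citric acid cycle genes (7 of 17 higher, 1 lower, median 0.10) and mitochondrial transcripts (4 of 7 higher, median 0.24) had medians below the shift between scalings, which turned to -0.25, -0.48 and -0.34 with library size alone. Leaving out 1 library changed the counts of higher genes: 7 in the first list without LPS library 17, 4 in the second without unstimulated library 13, and 2 in the third without library 11, 13 or 16, each left out alone. With library size alone the higher and lower counts were 1 and 13, 1 and 13, and 0 and 5. Acod1 and Cycs, the gene of cytochrome c, were the genes of these lists that rose at least 2-fold.

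Of 19 cholesterol synthesis genes 8 were higher and 4 lower (4 and 10 with library size alone), against 30.3% higher and 31.5% lower of all genes tested. Lss, lanosterol synthase, fell from 15.5 ± 0.525 to 6.37 ± 0.833 CPM. Ch25h, which makes the antiviral lipid 25-hydroxycholesterol, rose from 0.594 ± 0.164 to 79.1 ± 13 CPM, while Abcg1, a cholesterol exporter that LXR induces, fell from 203 ± 22 to 91.2 ± 7.29 CPM, and Abca1, another, did not pass the test, at 1185 ± 161 and 1373 ± 421 CPM. Of 23 redox and iron genes 11 rose and 3 fell (8 and 11 with library size alone), and 1 was lower without LPS library 17, against 30.3% higher and 31.5% lower of all genes tested. Slc7a11, the cystine importer, rose from 9.89 ± 4.36 to 419 ± 139 CPM, Sod2, the mitochondrial superoxide dismutase, from 95.4 ± 17 to 1024 ± 25.1 CPM and Txnrd1 from 166 ± 26.2 to 982 ± 105 CPM, while the iron exporter gene Slc40a1 fell from 332 ± 30.8 to 107 ± 12.2 CPM. Stress genes rose in 15 of 21 cases and fell in 3 (7 and 9 with library size alone, where 3 took the opposite call). Hspa5, the chaperone BiP, rose from 549 ± 23.5 to 1521 ± 25 CPM and Ppp1r15a, known as GADD34, from 25.7 ± 4.3 to 168 ± 18.6 CPM, and Ddit3, the factor CHOP, fell from 12.9 ± 1.51 to 5.36 ± 1.5 CPM.

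Cell cycle genes mostly fell, 18 of 31 tested, and 4 rose, against 31.5% lower and 30.3% higher of all genes tested. The sizes were mostly small (median log2 -0.43), and 2 of the 4 that rose did so by more than 2-fold. Ccnd2, the cyclin D2 gene, stood at 6.14, 6.13 and 4.94 CPM unstimulated and 259, 197 and 181 CPM with LPS (log2 5.21 ± 0.18 SE), and Mki67, the proliferation marker Ki-67, at 41.4, 34.4 and 31.4 CPM unstimulated and 564, 404 and 358 CPM with LPS (log2 3.63 ± 0.29 SE). Both had their highest level in LPS library 11, and the other 2 changed by less than the shift between scalings. Top2a, the topoisomerase of dividing cells, was at 14.8 ± 0.766 and 14.6 ± 0.527 CPM and did not pass the test, and Ccna2, cyclin A2, fell from 4.33 ± 0.567 to 2.63 ± 0.623 CPM. Ccnd1, cyclin D1, fell from 79.9 ± 3.04 to 37.6 ± 1.94 CPM, and E2f2 from 8.58 ± 0.914 to 1.14 ± 0.231 CPM.

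Of 19 targets of p53 8 were higher and 8 lower (5 and 11 with library size alone), against 30.3% higher and 31.5% lower of all genes tested. Cdkn1a, the cell cycle inhibitor p21, rose from 333 ± 13.7 to 3310.0 ± 149 CPM, while Sesn1, a brake on the growth kinase mTORC1, stood at 195, 220.0 and 213 CPM unstimulated and 10.1, 14.8 and 14.8 CPM with LPS (log2 -3.99 ± 0.20 SE), and Trp53inp1 fell from 79.4 ± 5.93 to 8.13 ± 1.04 CPM. Of 16 clock genes 11 fell and 3 rose, with a median log2 change of -1.01. Per1 was at 31.5, 30.8 and 29.4 CPM unstimulated and 3.23, 3.0 and 3.69 CPM with LPS (log2 -3.21 ± 0.16 SE), and Dbp, Nr1d1 and Tef, outputs of the clock, fell from 19.6 to 4.36 CPM, from 10.9 to 3.02 CPM and from 67.1 to 20.3 CPM. Nfil3, which opposes Dbp at its binding sites, rose from 6.95 ± 0.913 to 129.9 ± 21.1 CPM. Clock itself did not pass the test, at 55.9 ± 3.04 and 70.1 ± 16.6 CPM.

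Genes of protein making and breakdown showed small, one-sided shifts. Proteasome genes rose in 23 of 25 cases (median log2 0.48), ribosomal protein genes in 16 of 26 (median 0.40) and ribosome biogenesis genes in 18 of 28 with 2 lower (median 0.43). With library size alone these medians were -0.10, -0.18 and -0.15, and 6, 0 and 4 genes were called higher, so their direction is relative to the bulk of genes, and the count of ribosomal protein genes called higher was 3 without LPS library 17, 8 without LPS library 14 and 6 without unstimulated library 13. Among the members raised at least 2-fold were Psme2 and Psme1, subunits of the interferon-inducible proteasome activator, from 92 ± 1.31 to 348 ± 31.3 CPM and from 87 ± 3.71 to 185 ± 10.7 CPM, and Rrs1, a ribosome assembly factor, from 12.7 ± 0.962 to 77.1 ± 9.01 CPM. Among 30 lysosome genes 5 rose and 8 fell, against 30.3% higher and 31.5% lower of all genes tested, and the counts were 9 and 8 with DESeq2 and 1 and 26 with library size alone. Tfeb, the factor that controls lysosome genes, stood at 65.8, 64.3 and 61 CPM unstimulated and 9.44, 11.3 and 12.9 CPM with LPS (log2 -2.52 ± 0.15 SE), while Ctsb did not pass the test, at 14223 ± 254 and 15016 ± 925 CPM. Mitf, a relative of Tfeb, rose from 117 ± 11.4 to 394 ± 66.8 CPM.

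Chromatin regulators rose in 11 and fell in 8 of 26 cases (7 and 14 with library size alone), against 30.3% higher and 31.5% lower of all genes tested. Kdm6b, the H3K27 demethylase JMJD3, rose from 20.4 ± 6.66 to 163 ± 7.85 CPM and Jdp2, a repressor of AP-1 sites, from 17 ± 4.01 to 779 ± 115 CPM. Dnmt3a, a DNA methyltransferase, and Hdac5 fell from 196 ± 10.5 to 73.5 ± 7.61 CPM and from 151 ± 2.92 to 66.6 ± 7.15 CPM. In the TGF-beta pathway 10 of 21 rose and 4 fell, against 30.3% higher and 31.5% lower of all genes tested. Without unstimulated library 16, 6 were called higher, and the counts were 3 and 12 with library size alone. Smad6 and Smad7, the inhibitory SMADs, fell from 28.8 ± 3.11 to 5.39 ± 1.41 CPM and from 30.7 ± 1.75 to 12.5 ± 2.32 CPM, and Inhba, the activin A subunit, rose from 2.21 ± 0.82 to 9.67 ± 4.4 CPM.

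Of 821 long non-coding genes tested 32.8% were lower by at least 2-fold and 15.5% higher, and of 11435 protein-coding genes 13.4% were lower and 13.9% higher. Mir155hg, the host transcript of miR-155, stood at 1.61, 0.432 and 0.326 CPM unstimulated and 253, 267 and 244 CPM with LPS (log2 8.34 ± 0.43 SE), with library 10 the highest before LPS. The libraries count the host gene and not the mature miRNA, whose RefSeq sequence (GRCm38.p6, chr16:84714143-84714165, plus strand) is shown with its seed, bases 2 to 8, in capitals because the host gene was the most raised of the microRNA hosts listed.
mmu-miR-155-5p: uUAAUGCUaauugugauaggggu

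Ptgs2os2 and Il1bos, which lie beside Ptgs2 and Il1b, rose from 0.0542 to 7.06 CPM and from 0.0933 to 20.3 CPM; the strand setting of the counting is not given in the sources used here, so these cannot be told apart from reads of the partner gene. Neat1, the scaffold RNA of paraspeckles, fell, at 1059, 1454 and 1454 CPM unstimulated and 501, 585 and 548 CPM with LPS (log2 -1.28 ± 0.17 SE), while Malat1 did not pass the test, at 761 ± 269 and 689.7 ± 129 CPM.

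A few genes went from present to nearly absent after LPS, and 40 went the other way, from under 0.5 CPM to at least 10 CPM. Means of at least 5 CPM without LPS and under 0.5 CPM with it were seen in 7 genes: Cnr2, Usp2, Lpar5, Frat1, Dnajc28, Rhov and Fan1. Usp2, a deubiquitinase under clock control, fell from 19 ± 2.9 to 0.459 ± 0.153 CPM. Arrdc3 and Fbxo32 were among the 12 largest falls of genes with at least 10 CPM. Arrdc3, an arrestin-like adaptor of receptor breakdown, stood at 92.3, 92.3 and 93.7 CPM unstimulated and 2.53, 2.11 and 2.39 CPM with LPS (log2 -5.29 ± 0.16 SE). Fbxo32, the ubiquitin ligase atrogin-1, was at 41.1, 39.3 and 35.2 CPM unstimulated and 1.27, 1.4 and 0.776 CPM with LPS (log2 -5.04 ± 0.28 SE). No LPS library came near the unstimulated level of either. Among the largest losses in CPM, Apobec1, a cytidine deaminase that edits RNA, fell from 693 ± 11.7 to 195 ± 3.28 CPM and Lhfpl2 from 513 ± 18.9 to 44.9 ± 5.39 CPM. Rnf144b and Gpr146 fell from 26.2 ± 2.2 to 1.23 ± 0.124 CPM and from 66.6 ± 8.53 to 4.13 ± 0.233 CPM. Zinc finger genes with numbered Zfp, Zscan or Zkscan names, a group formed after the values were seen, were lower in 201 of 312 tested and higher in 34, against 30.3% higher and 31.5% lower of all genes tested, with a median log2 change of -0.84 (-1.42 with library size alone).

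**Figure D4:**
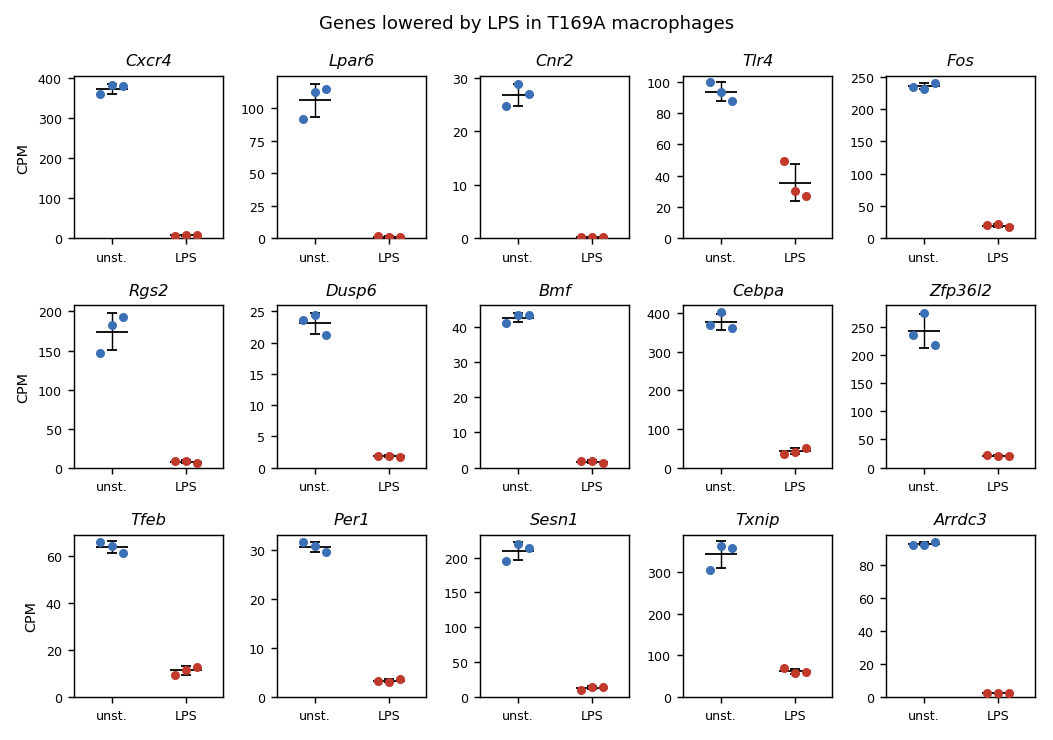
CPM in each of the 6 T169A libraries (points; left to right 10, 13, 16 unstimulated and 11, 14, 17 with LPS) with mean and SD for 15 lowered genes, on linear axes that start at 0. The groups do not overlap for any of the 15, and Cxcr4, Lpar6, Cnr2 and Arrdc3 lie close to 0 after LPS.

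The same treatment in B6 macrophages gave a reference for these changes, and the question was whether any gene responded differently in T169A cells. No gene did by the test of the difference of effects: edgeR's quasi-likelihood test called 0 of 13068 genes (0.0%), with a smallest adjusted p of 0.916 and 421 genes at an unadjusted p under 0.05, and DESeq2 called 0. Of the 1860 genes raised at least 2-fold here 1806 were also called higher in B6, and of the 1997 lowered 1891 were called lower. Opposite calls in B6 were given to 1 of the raised and 0 of the lowered genes. The 3857 genes that moved at least 2-fold in T169A cells had a median absolute difference between genotypes of 0.21 on the log2 scale, and 237 of them differed by more than 1. Across genes the 2 sets of log2 changes had a Pearson r of 0.963, a description over genes, which are not independent replicates.

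The genes with the smallest p for a larger effect in T169A cells were Tarm1, a receptor of activated myeloid cells, at log2 6.03 ± 0.16 SE against 4.93 ± 0.14 in B6, and Ptges, at 5.00 ± 0.13 against 4.26 ± 0.12. Hp, which encodes haptoglobin, was at 1.52 ± 0.24 against 0.28 ± 0.22. With a smaller value in T169A cells, Serpinb2, the plasminogen activator inhibitor PAI-2, was at 5.25 ± 0.23 against 6.49 ± 0.25, Txnip at -2.47 ± 0.10 against -1.97 ± 0.10, and Fam53b at -1.20 ± 0.09 against -0.73 ± 0.09. The pseudogene Atp6v0c-ps2, a near copy of a proton pump gene whose reads it may share, was at -3.43 ± 0.76 against 1.44 ± 0.80. The differences were 1.10 ± 0.24, 0.74 ± 0.16, 1.24 ± 0.33, -1.24 ± 0.36, -0.50 ± 0.14, -0.47 ± 0.12 and -4.88 ± 1.11 in the same order (SE), each with an edgeR adjusted p of 0.916. A gene with no symbol was also among the 4 smallest p-values for a larger effect in T169A cells. It was at 6.49 ± 0.34 against 4.40 ± 0.27 in B6, a difference of 2.09 ± 0.54 (SE) with the same adjusted p. For the gene that the knock-in alters, Ripk1, the difference was -0.19 ± 0.17, for Cflar -0.05 ± 0.31, for Mlkl 0.03 ± 0.24 and for Zbp1 0.34 ± 0.31. A test that misses the threshold with 3 libraries a group does not show that the genotypes respond alike.

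**Figure D5:**
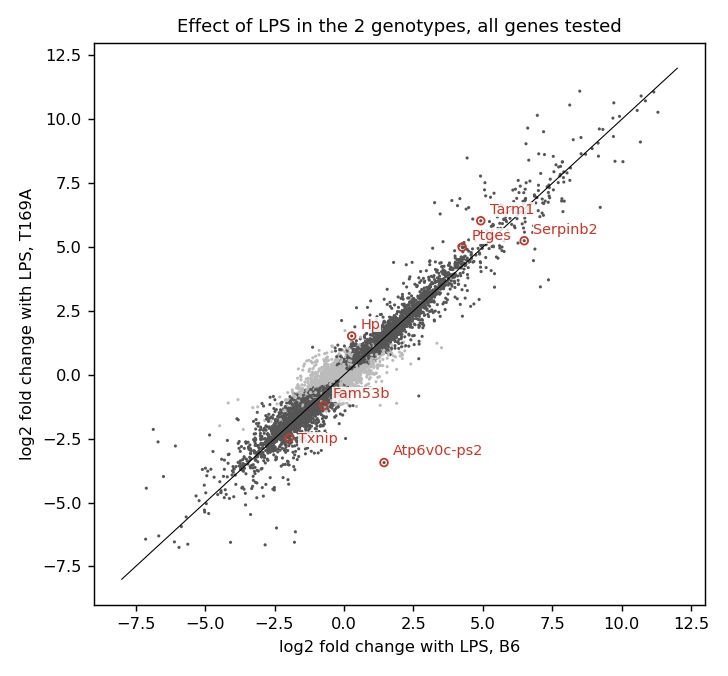
Log2 fold change with LPS in T169A (vertical) against B6 (horizontal) for all genes tested, dark where the gene was called in T169A, with the line of equal effects. Points follow the line, and the labelled genes are among those with the smallest p for a difference, none of which passed adjustment.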

How the data were processed

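The authors deposited 1 table of raw read counts per gene for all 18 libraries. Reads were trimmed with Trim Galore, aligned with STAR to GRCm39 and counted with featureCounts, per the submitters' processing notes; versions and strand setting are not given in the sources used here. The table's columns name genotype, treatment and a running number, which groups the libraries but does not tie a column to 1 titled sample. Gene symbols, types and exon lengths came from GENCODE M21 (GRCm38): 52029 of 56953 gene IDs matched, with 99.8% of counts.

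The 18 libraries were fitted together in 6 group means with edgeR 4.0.16 in R 4.3.3 (filterByExpr, TMM, robust quasi-likelihood F-test, Benjamini-Hochberg over 13068 genes, threshold 0.05). Each SE is the log2 change divided by the root of its F statistic, and is not a standard error from the fit itself. For genes with few counts it can be smaller than counting error allows. Shisa3 had an SE of 0.30 on the log2 scale beside its counting interval of 643 to 19200. The SE of a difference need not follow from those of its parts. DESeq2 1.42.0, other scalings, filters and thresholds, and leaving out each library were tried, and the fit was tested on simulated data. Figures used Python 3.11.15 and matplotlib 3.10.9. A count of 0 was set to a floor of 3 counts over the group, and ratios of 1 to 3 counts carry exact 95% intervals. Library totals of 17990688 to 29508486 counts set the precision of low genes.

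Named genes were the 12 largest changes in each direction (no overlap between groups, at least 10 CPM, Gm, Rik and ID-only symbols left out). To these came the 10 largest gains and losses in CPM, up to 5 called and 2 not called members of each list, and a set around RIPK1 and LPS signalling. The largest changes of long non-coding genes and the 4 smallest p-values in each direction for the difference between genotypes were added. The lists, the rule and the comparison were chosen with earlier results of these data known. Other genes, among them further list members, promoter windows, cell cycle genes, neighbouring genes and genes close to absent after LPS, were named after their values were seen. The LPS/5z7 libraries entered the fit and are not described. Some results are not reported here.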

Additional observations from a re-analysis of the deposited data

How the results depend on the processing

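The counts of 3965 higher and 4120 lower genes stayed within 1.5 times under DESeq2 (4107 and 3992), DESeq2 size factors in edgeR (4067 and 4011), no filter on low counts (3858 and 4114), a filter at 1 CPM (3744 and 3962), a fit of the 6 libraries alone (4004 and 4091) and an adjusted p under 0.01 (3351 and 3392). Scaling by library size alone gave 1934 higher and 8106 lower genes, and 1172 and 4118 at 2-fold. A minimum of 4-fold left 886 and 609 genes, and one of 1.5-fold gave 2738 and 3126. Leaving out 1 library gave 3634 to 3791 higher and 3818 to 3998 lower genes, and 1787 to 1918 and 1941 to 2058 at 2-fold. The difference between genotypes gave 0 genes under every alternative run, including leaving out each B6 library, which was added after seeing the data. With library size alone 429 called genes took the opposite call. No called gene that the report gives with its own value turned under an alternative run, and 1, the marker Pf4, lost its call (log2 0.21 with library size alone). Genes not called turned negative with library size alone: log2 changes were Casp8 (-0.40), Map3k7 (-0.34), Cd36 (-0.39), Ldha (-0.40), Mapk3 (-0.50), Aldoa (-0.45), Irf2 (-0.46), Stat6 (-0.52), Ripk3 (-0.34), Ctsb (-0.50), Sharpin (-0.57) and H2-DMa (-0.53). No paired analysis was possible because the count columns carry running numbers and not the replicate letters of the titles, so no replicate block was fitted. The 3 libraries a group and a floor of 3 counts limit what is known of genes with few counts before LPS.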
